A study of Homo sapiens with 8 samples.

Results

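TNFRSF8, CD40, CCL17, CCL22, CD274, PDCD1LG2, TRAF1, FSCN1 and FUT4 are 9 genes by which Hodgkin Reed-Sternberg cells, the tumor cells of Hodgkin lymphoma, are commonly described. Every array probe whose transcript identifier maps to one of them was taken, with no choice by signal, which gave 12 of the 41000 probes on the array and 9 of the 16551 genes that could be named. TRAF1, FSCN1 and FUT4 had a pair of probes each, and the other 6 genes had 1 probe.

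The RNA came from KM-H2, an established Hodgkin lymphoma cell line, transduced either with the empty pMSCV-PIG vector (EV) or with this vector bearing a sponge against miR-155, a transcript with binding sites that occupies the microRNA (miR-155-sp). In both populations the cells positive for the vector's GFP had been sorted. From each population total RNA (T) and RNA from an immunoprecipitation of Argonaute 2 (IP) were hybridized to 2-color arrays. Argonaute 2 is the protein that holds microRNAs and their targets. The IP/T ratio asks which transcripts are enriched on Argonaute 2, and the sponge was meant to ask which of them depend on miR-155. The study that reported these arrays proposes that the sponge left part of the miR-155 in KM-H2 unbound. A small change with the sponge therefore does not show that a transcript is independent of miR-155. Each of the 4 groups is 1 RNA sample labelled once with Cy3 and once with Cy5, so both values of a group are labellings of the same RNA, no test between groups was possible, and whatever differs between the cell populations besides the sponge cannot be told apart from it.

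CD30 (TNFRSF8) and CD40 are receptors of the TNF receptor family that signal to NF-kappaB through TRAF adaptors, and TRAF1 is one of those adaptors. CD274 (PD-L1) and PDCD1LG2 (PD-L2) are ligands of the T-cell checkpoint receptor PD-1, and CCL17 (TARC) and CCL22 (MDC) attract T cells that carry the receptor CCR4. FSCN1 (fascin) bundles actin filaments, and FUT4 is a fucosyltransferase that builds the CD15 carbohydrate epitope.

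The microRNA that the sponge is made to bind is shown first, since all changes between the populations are read against it. Its mature sequence, from RefSeq (GRCh38.p14, chr21:25573983-25574006, + strand), has the seed, bases 2 to 8, in capitals, and a transcript pairs with the seed through the letters AGCATTA.
hsa-miR-155-5p: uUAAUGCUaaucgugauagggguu

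Signals are given as normalized log2 values, in which 1 unit is a factor of 2, first for the Cy3 and then for the Cy5 labelling of a sample. A probe counted as retained when the scanner software flagged it as well above background in 4 or more of the 8 channels (4 samples in 2 dyes) and when the labellings of every sample were within 2-fold, which 10 of the 12 probes met, for 7 of the 9 genes, as did 17912 probes or 43.7% of the array. In all 8 channels this flag was set for 9 of these 10, against 75.0% of all retained probes. The share of gene spots with the flag was 58.9% to 61.9% in Cy3 but 38.8% to 43.4% in Cy5, so dim probes rest mainly on Cy3.

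The label was checked against the markers of other cells. Of the B-cell receptor components, CD79B was not well above background in any channel, and CD79A was so in all 8. The myeloid markers LYZ, MPO and CD163 and the stromal and epithelial markers COL1A2 and EPCAM were also not well above background in any channel, while the myeloid marker CD14 was so in 6 channels, and the T-cell markers CD3E, by 1 of its probes, in 4 and CD3G in 3. KRT8, an epithelial keratin, was so in all 8 with one probe and in none with the other. In the 4 channels of total RNA, 9 of the 12 Hodgkin marker probes were well above background throughout and 2, those of CCL22 and CD274, in none. The same held throughout for 0 of 5 T-cell, 0 of 4 myeloid and 1 of 5 stromal and epithelial probes.

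**Figure D1:**
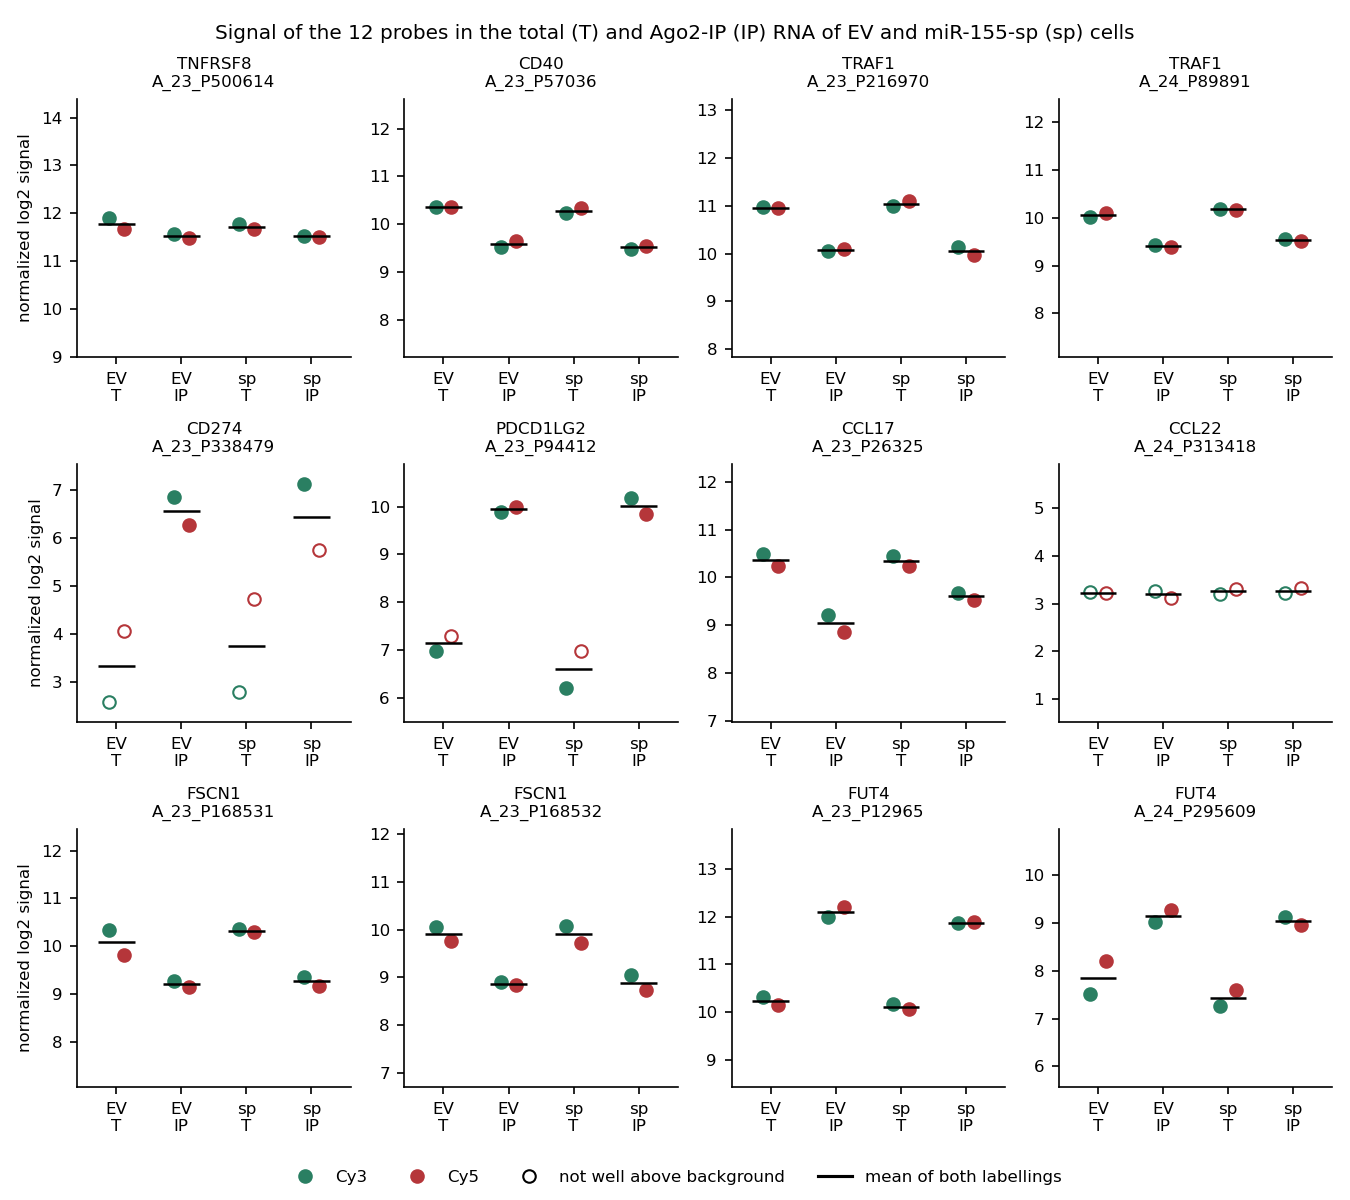
Normalized log2 signal (vertical axis) of each of the 12 probes in the total (T) and IP RNA of EV cells and of miR-155-sp (sp) cells, 1 panel per probe, with a point for the Cy3 and a point for the Cy5 labelling of each sample; black lines are means of both labellings and open points were not well above background. PDCD1LG2 and FUT4 sit higher in the IP than in the total samples, CCL17, CD40, TRAF1 and FSCN1 sit lower, and CCL22 lies flat between 3.13 and 3.32.

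Both receptors were measured well above background in every channel and lay lower in the IP than in the total RNA of both populations. TNFRSF8 had log2 signals of 11.89 and 11.67 in EV total, 11.57 and 11.49 in EV IP, 11.77 and 11.66 in miR-155-sp total, and 11.53 and 11.51 in miR-155-sp IP. The IP and total values of TNFRSF8 did not overlap in either population. How many of all retained probes stood apart in this way was not computed, and the same applies to the members below. For comparison, 46.0% of all retained probes had IP/T below 1 in both orientations of both populations. Its IP/T ratio was 0.841 in EV (0.753 with the IP in Cy5 and 0.939 with it in Cy3) and 0.874 in miR-155-sp (0.836 and 0.914). This lay close to the median of all retained probes, which was -0.24 in EV on the log2 IP/T scale, against -0.25 for TNFRSF8.

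CD40 was lower in the IP by a wider margin than TNFRSF8 in all orientations. Its log2 signals were 10.37 and 10.36 in EV total, 9.51 and 9.65 in EV IP, 10.23 and 10.33 in miR-155-sp total, and 9.47 and 9.55 in miR-155-sp IP. The IP/T ratio was 0.581 in EV (0.609 with the IP in Cy5 and 0.554 with it in Cy3) and 0.588 in miR-155-sp (0.626 and 0.552). CD40 was printed as 10 spots, which gives a measure of spot error that the other probes lack: the SD over spots was 0.0612 to 0.102 log2 units in Cy3 and 0.113 to 0.225 in Cy5. The IP and total values of CD40 stood apart by more than that spot SD in every labelling. That SD covers only repeat spots within a hybridization, before quantile normalization, and not the error of the immunoprecipitation.

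The adaptor TRAF1 was also lower in the IP with both of its probes. Probe A_23_P216970 had log2 signals of 10.96 and 10.95 in EV total, 10.04 and 10.11 in EV IP, 10.99 and 11.10 in miR-155-sp total, and 10.13 and 9.97 in miR-155-sp IP. Probe A_24_P89891 had 10.01 and 10.11, 9.43 and 9.40, 10.17 and 10.17, and 9.55 and 9.51 in the same order. With each probe the total samples all lay above the IP samples. The IP/T ratio of A_23_P216970 was 0.542 in EV and 0.501 in miR-155-sp, and that of A_24_P89891 was 0.641 and 0.640. The probes of TRAF1 thus had the same direction and differed in size, and orientations of a probe lay close together, between 0.492 and 0.551 for the first and between 0.627 and 0.656 for the second.

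The PD-1 ligands stood at the other end. The CD274 and PDCD1LG2 genes are neighbors on chromosome 9 in the RefSeq gene order, and both were brighter in the IP than in total RNA. PDCD1LG2 had log2 signals of 6.98 and 7.29 in EV total, 9.89 and 9.99 in EV IP, 6.21 and 6.97 in miR-155-sp total, and 10.17 and 9.84 in miR-155-sp IP. All 4 IP values lay above all 4 total values, by over 2 log2 units, but in total RNA the probe was well above background only in the Cy3 labelling of each population. The IP/T ratio was 6.98 in EV (8.03 with the IP in Cy5 and 6.07 with it in Cy3) and 10.7 in miR-155-sp (12.4 and 9.17), and in EV it lay above the 95th percentile of all retained probes (2.18 as log2 IP/T, against 2.80 for PDCD1LG2). The ratios with the IP in Cy3, and with them the means, rest on a total signal that was not well above background. The size of the ratio depends on how background is corrected: with normexp correction and quantile normalization, log2 IP/T in EV was 1.27.

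CD274 could be set only against a limit of detection. Its log2 signals were 2.58 and 4.06 in EV total and 2.77 and 4.72 in miR-155-sp total, none of them well above background. In the IP it had 6.86 and 6.27 in EV, both well above background, and 7.13 and 5.75 in miR-155-sp, where only the Cy3 labelling was well above background. Each total signal was replaced by the lowest signal that counted as well above background in its channel. Against that limit, CD274 was 2.67-fold higher in the IP in EV (3.88-fold with the IP in Cy5 and 1.83-fold with it in Cy3). In miR-155-sp it was 2.22-fold higher as a mean that includes the Cy5 value. With the IP in Cy3, the labelling that was well above background there, it was 1.48-fold higher. These folds are not strict lower bounds, since a probe brighter than the limit could also lack the flag. PDCD1LG2 was not well above background at 7.29 in EV total Cy5, where the limit was 5.99. That signal lies above the 6.86 of CD274 in the EV IP. As a probe well above background in only 3 channels it is not among the retained probes, and no change between populations is given for it.

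Of the chemokines, CCL17 had the lowest IP/T ratio in EV of the members' retained probes, and CCL22 was not well above background. With normexp correction CCL17 was not the lowest. Its log2 IP/T in EV was then -0.598 with loess and -0.825 with quantile normalization, against -0.665 and -0.830 for TRAF1 A_23_P216970. CCL17 had log2 signals of 10.49 and 10.24 in EV total, 9.22 and 8.86 in EV IP, 10.44 and 10.25 in miR-155-sp total, and 9.67 and 9.53 in miR-155-sp IP. The total samples of the populations overlapped, both IP samples were lower, and the EV IP sample lay below the miR-155-sp IP sample in both dyes. The IP/T ratio of CCL17 was 0.398 in EV (0.321 with the IP in Cy5 and 0.493 with it in Cy3) and 0.597 in miR-155-sp (0.532 and 0.669).

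CCL22 lies near CCL17 on chromosome 16, with 1 gene, CX3CL1, between them in the RefSeq order. Its single probe was not well above background in any of the 8 channels, where its log2 signals were between 3.13 and 3.32. No ratio or change is given for CCL22.

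FSCN1 was lower in the IP with both probes, and the dyes disagreed more than for the receptors. Probe A_23_P168531 had log2 signals of 10.34 and 9.82 in EV total, 9.28 and 9.16 in EV IP, 10.35 and 10.30 in miR-155-sp total, and 9.36 and 9.17 in miR-155-sp IP. Probe A_23_P168532 had 10.05 and 9.76, 8.90 and 8.84, 10.07 and 9.73, and 9.04 and 8.74 in the same order. The IP and total values did not overlap with either probe. The IP/T ratios were 0.550 in EV and 0.479 in miR-155-sp for the first probe and 0.488 and 0.496 for the second, so which side of 0.5 a value fell on differed between probes and populations by less than the orientations of one probe did (0.441 to 0.687 for A_23_P168531 in EV).

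FUT4 was higher in the IP with both probes. Probe A_23_P12965 had log2 signals of 10.32 and 10.14 in EV total, 11.99 and 12.21 in EV IP, 10.17 and 10.06 in miR-155-sp total, and 11.87 and 11.88 in miR-155-sp IP. Probe A_24_P295609 had 7.52 and 8.20, 9.02 and 9.27, 7.27 and 7.60, and 9.12 and 8.96 in the same order. With each probe all IP values lay above all total values. The IP/T ratio of A_23_P12965 was 3.64 in EV (3.70 with the IP in Cy5 and 3.59 with it in Cy3) and 3.39 in miR-155-sp (3.27 and 3.51). That of A_24_P295609 was 2.43 in EV (3.36 and 1.76) and 3.04 in miR-155-sp (3.23 and 2.86). With normexp correction and quantile normalization it was below 2 in both populations, at 0.48 in EV and 0.68 in miR-155-sp on the log2 scale.

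**Figure D2:**
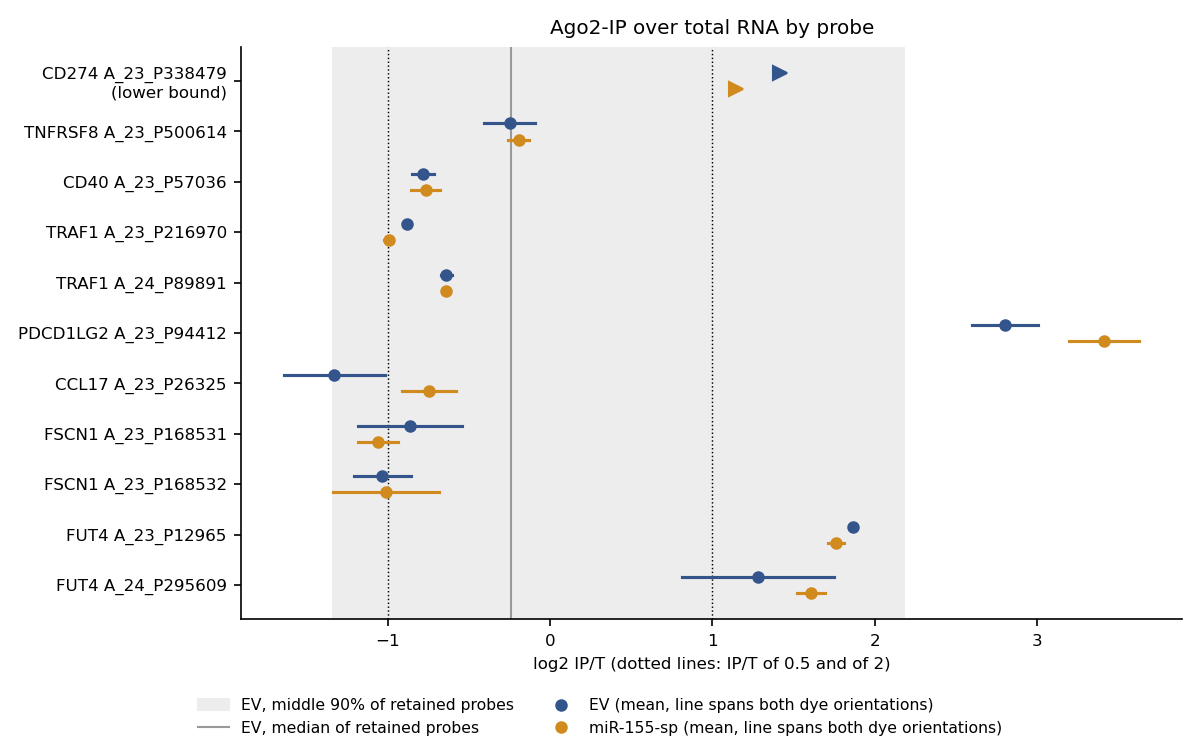
log2 IP/T (horizontal axis) of the 10 retained probes in EV and miR-155-sp, with the mean as a point and a line that spans both dye orientations; the gray band holds the middle 90% of all retained probes in EV. Triangles show CD274 against the lowest total signal well above background, which is labelled a lower bound but is not a strict one. PDCD1LG2 lies beyond the band at 2.80 in EV and 3.41 in miR-155-sp, and the receptors, TRAF1, CCL17 and FSCN1 lie below 0.

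By count, the retained probes fell on both sides. An IP/T ratio of at least 2 was found for 3 of 10 probes in EV (PDCD1LG2 and both of FUT4), against 14.8% of all retained probes, and for the same 3 in miR-155-sp, against 15.6%. In both orientations of both populations this held for 2 of 10, PDCD1LG2 and FUT4 A_23_P12965, against 11.0% of all retained probes. A ratio of 0.5 or less was found for 2 of 10 in EV (CCL17 and FSCN1 A_23_P168532), against 12.9%, and for 2 of 10 in miR-155-sp (both of FSCN1), against 14.1%. With 10 probes of 7 genes, these counts move much with a single probe. A ratio below 1 in both orientations of both populations was found for 7 of 10 probes, those of TNFRSF8, CD40, TRAF1, CCL17 and FSCN1, against 46.0% of all retained probes. With normexp correction fewer probes passed either ratio, and 0 of the members' probes had a ratio of 0.5 or less, against 1.65% (with loess) and 2.63% (with quantile normalization) of all retained probes in EV.

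Between the populations, none of the 10 probes passed a 2-fold change in IP/T, in total RNA or in IP RNA. Of all retained probes, 1.45% passed it in IP/T, 0.363% in total RNA and 0.234% in IP RNA. For TNFRSF8, CD40 and TRAF1 the log2 change in total RNA (miR-155-sp minus EV) was -0.07, -0.09, and 0.09 and 0.12 with the TRAF1 probes, and the log2 change in IP/T was 0.06, 0.02, and -0.11 and -0.0034. The middle 90% of retained probes spanned -0.44 to 0.39 in total RNA and -0.51 to 0.53 in IP/T, and all these values lay well within it. Whether these genes depend on miR-155 was not tested by this, as the sponge may have left miR-155 unbound. The arrays measure bulk RNA, so fewer cells that express a gene and less RNA per cell cannot be told apart.

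CCL17 and PDCD1LG2 were the probes with the largest difference in IP/T between the populations, and in both it was higher in miR-155-sp. For CCL17 the ratio was higher by 0.58 on the log2 scale, with differences of 0.73 with the IP in Cy5 and 0.44 with the IP in Cy3. The total RNA of CCL17 differed by -0.02 on the log2 scale while its IP RNA was 1.48-fold higher in miR-155-sp (0.45 in Cy3 and 0.68 in Cy5 on the log2 scale), so the difference lay in the IP RNA. Of all retained probes, 4.01% were higher by at least as much in IP/T and 2.11% in IP RNA.

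For PDCD1LG2 the ratio was higher by 0.61 on the log2 scale (1.53-fold). As a mean over both dyes, the difference here lay mostly in the total RNA. It was 0.62 with the IP in Cy5, where all channels were well above background, and 0.60 with it in Cy3, where the total RNA was not. Its total RNA was lower in miR-155-sp by -0.77 in Cy3 and -0.32 in Cy5, a mean of -0.54 on the log2 scale, while its IP RNA differed by 0.28 in Cy3 and -0.15 in Cy5. In Cy3 the IP RNA thus added to the difference in the ratio. Of all retained probes, 2.73% were lower by at least as much in total RNA and 3.67% were higher by at least as much in IP/T. In the Cy3 labellings alone, the only ones in which its total RNA was well above background, the log2 change in IP/T was 1.05, past 2-fold, and in the Cy5 labellings alone it was 0.17.

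**Figure D3:**
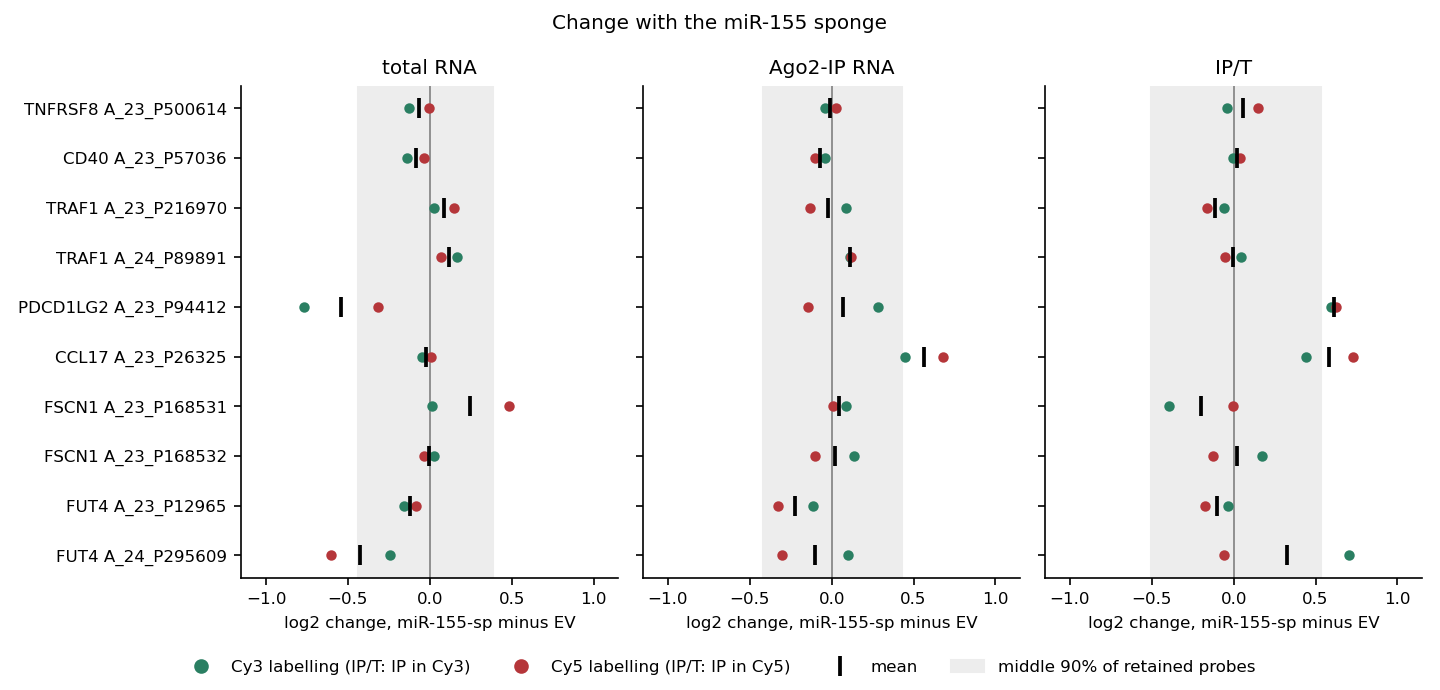
log2 change from EV to miR-155-sp (horizontal axis) of the 10 retained probes in total RNA, in IP RNA and in IP/T, with the labellings (for IP/T, the orientations, by the dye of the IP) as colored points and the mean as a black tick; the gray band holds the middle 90% of all retained probes. CCL17 lies above the band in IP RNA (0.56), PDCD1LG2 lies below it in total RNA (-0.54), and both lie above it in IP/T (0.58 and 0.61).

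For FSCN1 no difference between the populations held across both probes, and for FUT4 total RNA was lower in miR-155-sp with both probes but within the middle 90% of retained probes. FSCN1 A_23_P168531 had a log2 difference in total RNA of 0.01 in Cy3 and 0.48 in Cy5, and FSCN1 A_23_P168532 had a mean difference of -0.01. FUT4 A_24_P295609 had -0.24 in Cy3 and -0.60 in Cy5, and a difference in IP/T of -0.06 with the IP in Cy5 and 0.70 with it in Cy3, so its orientations disagreed in direction. FUT4 A_23_P12965 differed by -0.12 in total RNA and -0.10 in IP/T.

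By orientation, both miR-155-sp ratios lay above both EV ratios for 2 of 10 probes (CCL17 and PDCD1LG2), against 13.5% of all retained probes, and below both for 2 of 10 (TRAF1 A_23_P216970 and FUT4 A_23_P12965), against 13.8%. Total RNA was lower in miR-155-sp in both labellings for 5 of 10 probes, those of TNFRSF8, CD40, PDCD1LG2 and FUT4, against 32.9% of all retained probes. These shares were not tested against each other.

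The partners of the members were described by lists of related genes, whose counts stand against the 14.8% (EV) and 15.6% (miR-155-sp) of all retained probes with a ratio of at least 2 and the 12.9% and 14.1% with 0.5 or less. Among TRAF adaptors and partners of CD30 and CD40 signaling, 13 of 17 probes were retained, 3 had an IP/T ratio of at least 2 and 0 a ratio of 0.5 or less in each population, with a list median of 0.16 in EV (-0.02 with no detection filter) and -0.18 in miR-155-sp as log2 IP/T. TRAF2, the adaptor that CD30, CD40 and TRAF1 share, had a ratio of 0.560 in EV and 0.543 in miR-155-sp, close to that of TRAF1 A_23_P216970. The extreme of the list was BIRC3, a ubiquitin ligase recruited by TRAF2, with a ratio of 25.2 in EV and 30.0 in miR-155-sp. The CD30 ligand TNFSF8 was well above background in 4 channels but was not retained, and CD40LG, the ligand of CD40, was not well above background in any channel.

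Among other TNF receptors, 12 of 26 probes were retained and 5 had a ratio of at least 2 in each population. FAS, a death receptor, had the highest ratio, 13.9 in EV and 15.0 in miR-155-sp, and TNFRSF9 (CD137) the lowest, 0.35 and 0.324. A ratio of 0.5 or less was found for 1 probe in EV and 4 in miR-155-sp. The ratios of TNFRSF8 and CD40 lay inside the range of this receptor family. Its median of 0.33 in EV as log2 IP/T rests on which probes pass the filters, and was 0.02 with no detection filter and 1.41 with detection in all 8 channels.

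Among other B7 ligands and their receptors, 7 of 15 probes were retained, and 1 had a ratio of at least 2. That was CD80, a ligand of CD28 and CTLA4, with 3.22 in EV and 4.63 in miR-155-sp by probe A_23_P155632, while its probe A_24_P320033 had 1.69 and 1.40. PDCD1, the receptor PD-1 itself, was well above background in 5 channels and had ratios of 1.04 and 0.860. The list median was 0.17 in EV (-0.14 in the Cy3 labellings alone and 0.87 with detection in all 8 channels) and -0.19 in miR-155-sp as log2 IP/T, against 2.80 and 3.41 for PDCD1LG2.

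Of 33 probes for other chemokines and the receptor CCR4, 20 were not well above background in any channel, CCR4 among them, and 9 were retained. At least 2-fold enrichment in the IP was found for 4 probes in each population. The highest ratio was that of CX3CL1, the gene between CCL22 and CCL17, with 5.25 in EV and 4.52 in miR-155-sp by probe A_23_P37727, where its probes A_24_P381901 (2.69 and 2.08) and A_24_P390495 (2.72 and 2.45) had lower ratios. The lowest was that of CCL24, with 0.487 and 0.486. CCL17, at 0.398 in EV, lay below all 9 retained probes of this list in EV, and at 0.597 it did not in miR-155-sp.

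Of 13 probes for other fucosyltransferases only 3 were retained, all of POFUT1 and POFUT2, which attach fucose to proteins, and none had a ratio of at least 2. Among actin bundling and crosslinking proteins 8 of 15 probes were retained, and none had a ratio of at least 2 or of 0.5 or less. FLNA (filamin A) had the lowest ratio of that list, 0.585 in EV and 0.510 in miR-155-sp, near the values of FSCN1.

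**Figure D4:**
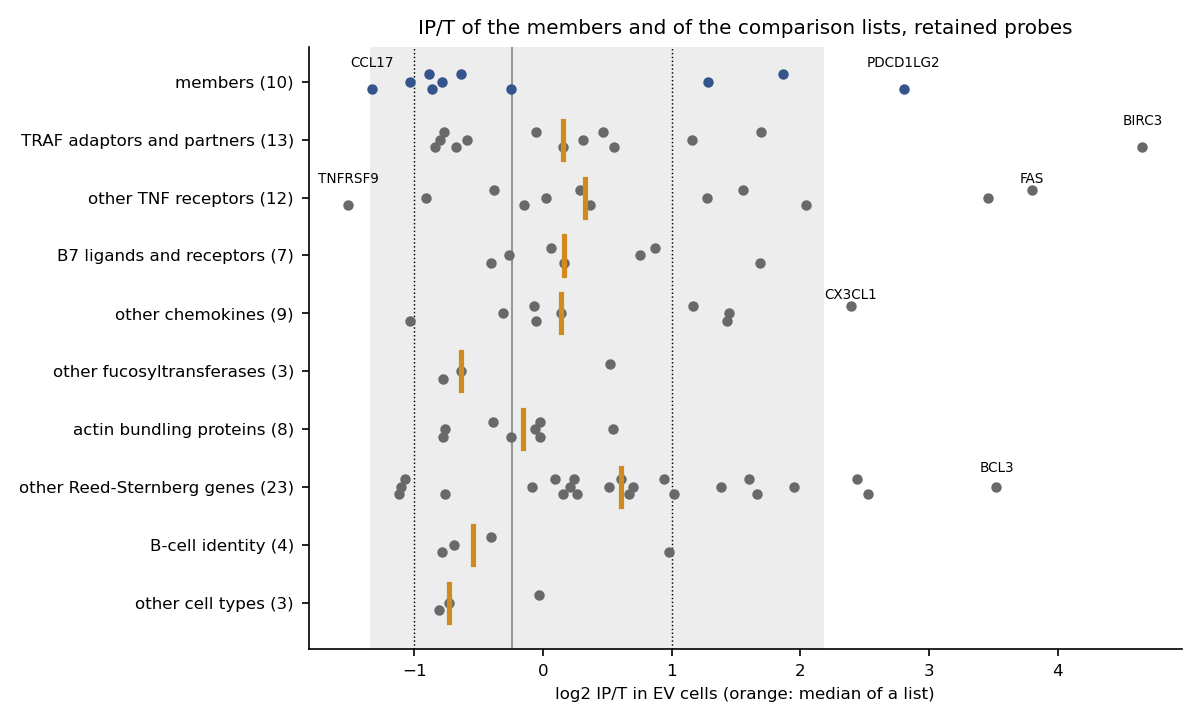
log2 IP/T in EV (horizontal axis) of every retained probe of the members and of 9 lists of related genes, 1 point per probe, with the median of each list marked in orange and the median of all retained probes as a line. Ratios of most lists spread over both sides of 0, BIRC3 and FAS lie to the far right, and the members range from -1.33 (CCL17) to 2.80 (PDCD1LG2).

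The probe with the most similar pattern over the 8 channels was found for each member with a retained probe, as the distance between log2 signals centred on their own means, among named probes well above background in all channels. For TNFRSF8 it was LSP1 (distance 0.119), for CD40 AGPAT2 (0.104), for TRAF1 MARCKSL1 (0.136), for FSCN1 LSM10 (0.147) and for FUT4 SNX10 (0.20). The nearest probes to CCL17 and PDCD1LG2 were farther away, RPL7L1 at 0.329 and SOCS1 at 0.556. All distances rest on the same 4 RNA samples.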

How the data were processed

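The arrays were 2-color Agilent 44k human arrays designed on hg18. The deposited spot intensity values are processed signals from which background had been subtracted and whose dyes had been normalized within the array. The file headers give Agilent Feature Extraction 10.7.3.1 as the software, and the submitters' processing notes 10.5.1.1. Each array held total RNA and IP RNA of 1 population in opposite dyes, and a sample's values were read from the channel of its own dye. The log2 values that the authors deposited are quantile-normalized, hold 16065 probes including all 10 retained probes of the members, and differed from the values computed here by a median of 0.000557.

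Outlier and control spots were left out, repeated spots were averaged as log2 values, and the 8 channels were quantile-normalized, so an overall difference between IP and total RNA is removed and a ratio is relative to all probes. Of the 40981 probes with a value in every channel, 22538 passed the detection filter (4 or more channels) and 17912 of these had labellings within 2-fold. Ratios are means over both labellings of log2 values. Replicates 1 and 2 are the Cy3 and Cy5 labellings of 1 RNA and show technical spread only, so no p-value was computed, and counts past a fixed ratio are given beside the share of all retained probes. The number of arrays limits the precision.

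Probes were named from RefSeq (GRCh38.p14) through their transcript identifiers, with 23943 probes (58.4%) matched to 1 gene. Named were all probes of the members, in each list the retained probes with the highest and lowest IP/T in EV and the largest change, TNFSF8, CD40LG, PDCD1, CCR4 and TRAF2, and the nearest probe to each member. Other list members were named after their values were seen. The members and lists were chosen with earlier results of these data known. Other lists covered B-cell identity genes, markers of other cell types, and other genes of Reed-Sternberg cells. Target sites and proteins of the members were not analysed here, and 1 B-cell marker is not reported here.

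Alternatives were a common median, normexp (offset 50, limma 3.58.1 in R 4.3.3) followed either by loess and Aquantile or by quantile normalization, the deposited values, other filters, arithmetic averaging, and each labelling alone. Other steps used Python 3.11.15, numpy 2.4.6 and pandas 2.3.3 and were tested on simulated data.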

Additional observations from a re-analysis of the deposited data

Results flagged for a closer look

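Of the retained probes of the members and the lists, 4 had IP/T ratios on opposite sides of 1 in the populations, in both dye orientations of each, and none of the 4 was a member. The share of all retained probes with this pattern was not computed, so whether this count is unusual cannot be told. For TANK A_24_P257108, a TRAF-binding protein, the ratio was 1.46 in EV and 0.853 in miR-155-sp, a log2 change of -0.78, with 6 of 8 channels well above background. The other TANK probe, A_23_P154306, was well above background in all 8 channels and had 1.12 and 1.04, a log2 change of -0.10, without this pattern. For TRAF4 A_23_P15654, an adaptor of the TRAF family, it was 1.38 and 0.959, a log2 change of -0.53, with all 8 channels well above background. For PDCD1 A_23_P136405, the receptor of PD-L1 and PD-L2, it was 1.04 and 0.860, a log2 change of -0.28, with 5 channels well above background. For the chemokine CXCL11, probe A_23_P125278, it was 0.937 and 0.995 by orientation in EV and 1.06 and 1.25 in miR-155-sp, a log2 change of 0.25, with all 8 channels well above background, while its probe A_24_P20607 was below 1 in both populations on average (0.807 and 0.916). None of these differences was tested, as each population is 1 sample. TRAF4 and CXCL11 were named after their values were seen.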

How the results depend on the processing

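With normexp, loess and Aquantile, the members' probes with IP/T of at least 2 numbered 1 in EV and 1 in miR-155-sp, and those with 0.5 or less 0 and 0, out of 9 retained. With normexp and quantile normalization, those with 0.5 or less numbered 0 and 0. With labellings within 1.5-fold, those with at least 2 numbered 1 and 1, out of 8. With each labelling alone, those with 0.5 or less numbered 1 to 3 in EV and 1 to 2 in miR-155-sp, and those past a 2-fold sponge change of IP/T 0 to 1 (PDCD1LG2 in Cy3). The other counts stayed within 1.5-fold. Of the values of single probes and lists, 403 moved by less than the spread between labellings, 115 by more, and none reversed at a called size. No IP/T in EV of a retained member probe changed direction under any alternative that kept it. The higher IP/T of CCL17 with the sponge kept its direction under 11 of 11 alternatives (0.33 to 0.67, log2) and that of PDCD1LG2 under 8 of 8 (0.17 to 1.05). In all these tallies, alternatives that change only the filters cannot move the value of a single probe. The deposited values are nearly those used here. Only the other alternatives could have changed the direction of a probe. The small sponge changes of TNFRSF8, CD40, TRAF1, FSCN1 and FUT4 A_23_P12965 did not all keep their sign. A common median moved the median log2 sponge change of IP/T over all probes to 0.055. The cause of these shifts was not tested. Depth of signal limits CD274, CCL22 and the total RNA of PDCD1LG2. No paired analysis was possible because the replicate numbers mark the Cy3 and Cy5 labellings of 1 RNA per group, so no test was run.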

Other observations

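Other genes used to describe Reed-Sternberg cells had 23 of 29 probes retained, of which 8 had IP/T of at least 2 in each population and 3 in EV and 1 in miR-155-sp had 0.5 or less, with a median log2 IP/T of 0.60 and 0.63 (0.28 in EV with normexp and quantile normalization). Of all retained probes, 14.8% in EV and 15.6% in miR-155-sp had at least 2, and 12.9% and 14.1% had 0.5 or less. BCL3, an IkappaB family protein, had the highest ratio, 11.5 in EV and 11.7 in miR-155-sp, and the adhesion receptor CD44 the lowest, 0.460 and 0.409. The 4 retained probes for B-cell identity genes had a median log2 IP/T of -0.55 in EV, which turned to 0.32 with a common median, and -0.73 in miR-155-sp. VPREB3 had a log2 sponge change of IP/T of -1.10 with 5 channels well above background. Of 19 probes for markers of other cell types 10 were not well above background in any channel and 3 were retained, with a median of -0.73 (-0.02 in EV with no detection filter) and -0.38, and CD3E A_24_P86968 had a change of 1.01 with 4 channels well above background. These were the only retained list probes past a 2-fold sponge change of IP/T.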
